A study of Mus musculus with 15 samples.

Results

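The 47 genes described here encode the proteins through which cells send, receive and block Wnt signals: 19 Wnt ligands, 10 Frizzled receptors, the LRP coreceptors Lrp5 and Lrp6, the alternative receptors Ror1, Ror2 and Ryk, 4 R-spondins, 4 secreted Frizzled-related proteins (Sfrp genes), 4 Dickkopf genes (Dkk) and Wif1. They were chosen by name as families, and the platform annotation gave each of them at least 1 probe set, 91 in all, so that all 47 were among the 18193 genes measured. For the 28 genes with several probe sets, the brightest on average over all arrays was used. Values are log2 signals of Affymetrix arrays, so a difference of 1 is a factor of 2.

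The arrays profiled mammospheres, floating clusters grown in culture without attachment, here from dissociated primary mammary tumours of FVB/N mice. All 15 arrays carry the genotype written WAPCre-DNbcatn;HGF, so every comparison below is within that genotype. WAP is, as background, a milk protein promoter that drives Cre in mammary epithelium, while the spheres can hold other cells of the tumour as well. How each allele is switched on, and in which cells it acts, is not written in that label. Spheres were grown for 7 days and treated for 24 h, and 250 ng of RNA is given for each sample. The titles carry 2 codes. Under the first code stand 3 arrays each of spheres treated with the vehicle DMSO, with PHA and with ICG (the first set), and under the second 3 arrays each of DMSO and of PHA and ICG together (PHA+ICG, the second set). Inhibitors of the Wnt and MET pathways are named in the series text, without doses. By general knowledge, PHA stands for an inhibitor of the MET receptor kinase and ICG for an inhibitor of transcription driven by β-catenin. Whether the 3 arrays of a group came from different cultures or mice is not stated in the labels, so p-values cover the spread among arrays alone, and that spread may be technical.

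Wnt proteins are lipid-modified signals that bind Frizzled receptors. With Lrp5 or Lrp6 as partner they stop the breakdown of β-catenin, which then drives transcription with TCF and LEF factors, while Ror and Ryk receptors carry signals that need no β-catenin. R-spondins raise the number of Frizzled receptors at the surface, SFRP and WIF1 proteins bind the ligand, and Dickkopf proteins other than Dkk3 bind the LRP coreceptors. In the mammary gland, Wnt4 and R-spondin 1 are known for supporting side branching and stem cells, and Wnt5a for restraining branching.

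Unless another error is named, differences are log2 fold changes ± SE from limma with 3 arrays in each group, treated minus DMSO of the same set, with p-values adjusted over all 18193 genes and a gene called at an adjusted p under 0.05. Each set was fitted alone, because replicates of the second set were 2.22 times as far apart as those of the first (median SD 0.236 against 0.107). Where the effect of PHA+ICG is compared with that of a single inhibitor, the effects come from different sets. Treatment cannot be told apart from set in those differences. Epithelial markers were present: 10 of 15 luminal and 10 of 15 basal markers had a mean above the median of all probe sets, which was 5.81. So were markers of other cells, with 15 of 16 fibroblast, 17 of 19 leukocyte, 3 of 12 endothelial and 4 of 8 adipocyte genes above it. Of the 47 Wnt family genes 26 lay above that median and 21 below. The receptors were mostly among the first, with 9 of 10 Frizzled genes, all 3 Ror and Ryk genes and 1 of 2 LRP genes, and the ligands mostly among the second, with 7 of 19 above. Of the secreted antagonists 3 of 4 Sfrp genes, 1 of 4 Dkk genes and 0 of 1 Wif1 gene lay above, and of the R-spondins 2 of 4.

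Single genes in several of these families were called with each inhibitor, about as often as over all genes with PHA and less often with ICG. With PHA 3 of the 47 genes rose (Fzd1, Fzd8 and Ror2) and 2 fell (Ror1 and Dkk2), where the test called 10.2% of all genes, 3.14% higher and 7.07% lower. With ICG 3 rose (Fzd1, Fzd4 and Wnt9a) and 6 fell (Wnt5a, Fzd2, Dkk3, Ror1, Sfrp2 and Lrp5), against 26.9% of all genes, 11.9% higher and 15% lower. With PHA+ICG none rose and 2 fell (Sfrp1 and Fzd2), against 2.02% of all genes, 0.478% higher and 1.54% lower. The median change of the 47 genes was 0.08 for PHA, 0.02 for ICG and −0.02 for the combination, beside 0.02, 0.03 and 0.00 over all genes. PHA and ICG were compared with the same 3 DMSO arrays, so their values are given side by side and not counted as separate support for each other. When all 15 arrays shared 1 estimate of the spread, none of the 5 PHA calls and 3 of the 9 ICG calls (Wnt5a, Fzd2 and Dkk3) were left, and with PHA+ICG 9 genes were lower and 1 higher (Fzd4). That fit called 1% of all genes with PHA, 0.0989% higher and 0.901% lower, 6.9% with ICG, 2.11% and 4.79%, and 13.3% with PHA+ICG, 4.46% and 8.81%.

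**Figure D1:**
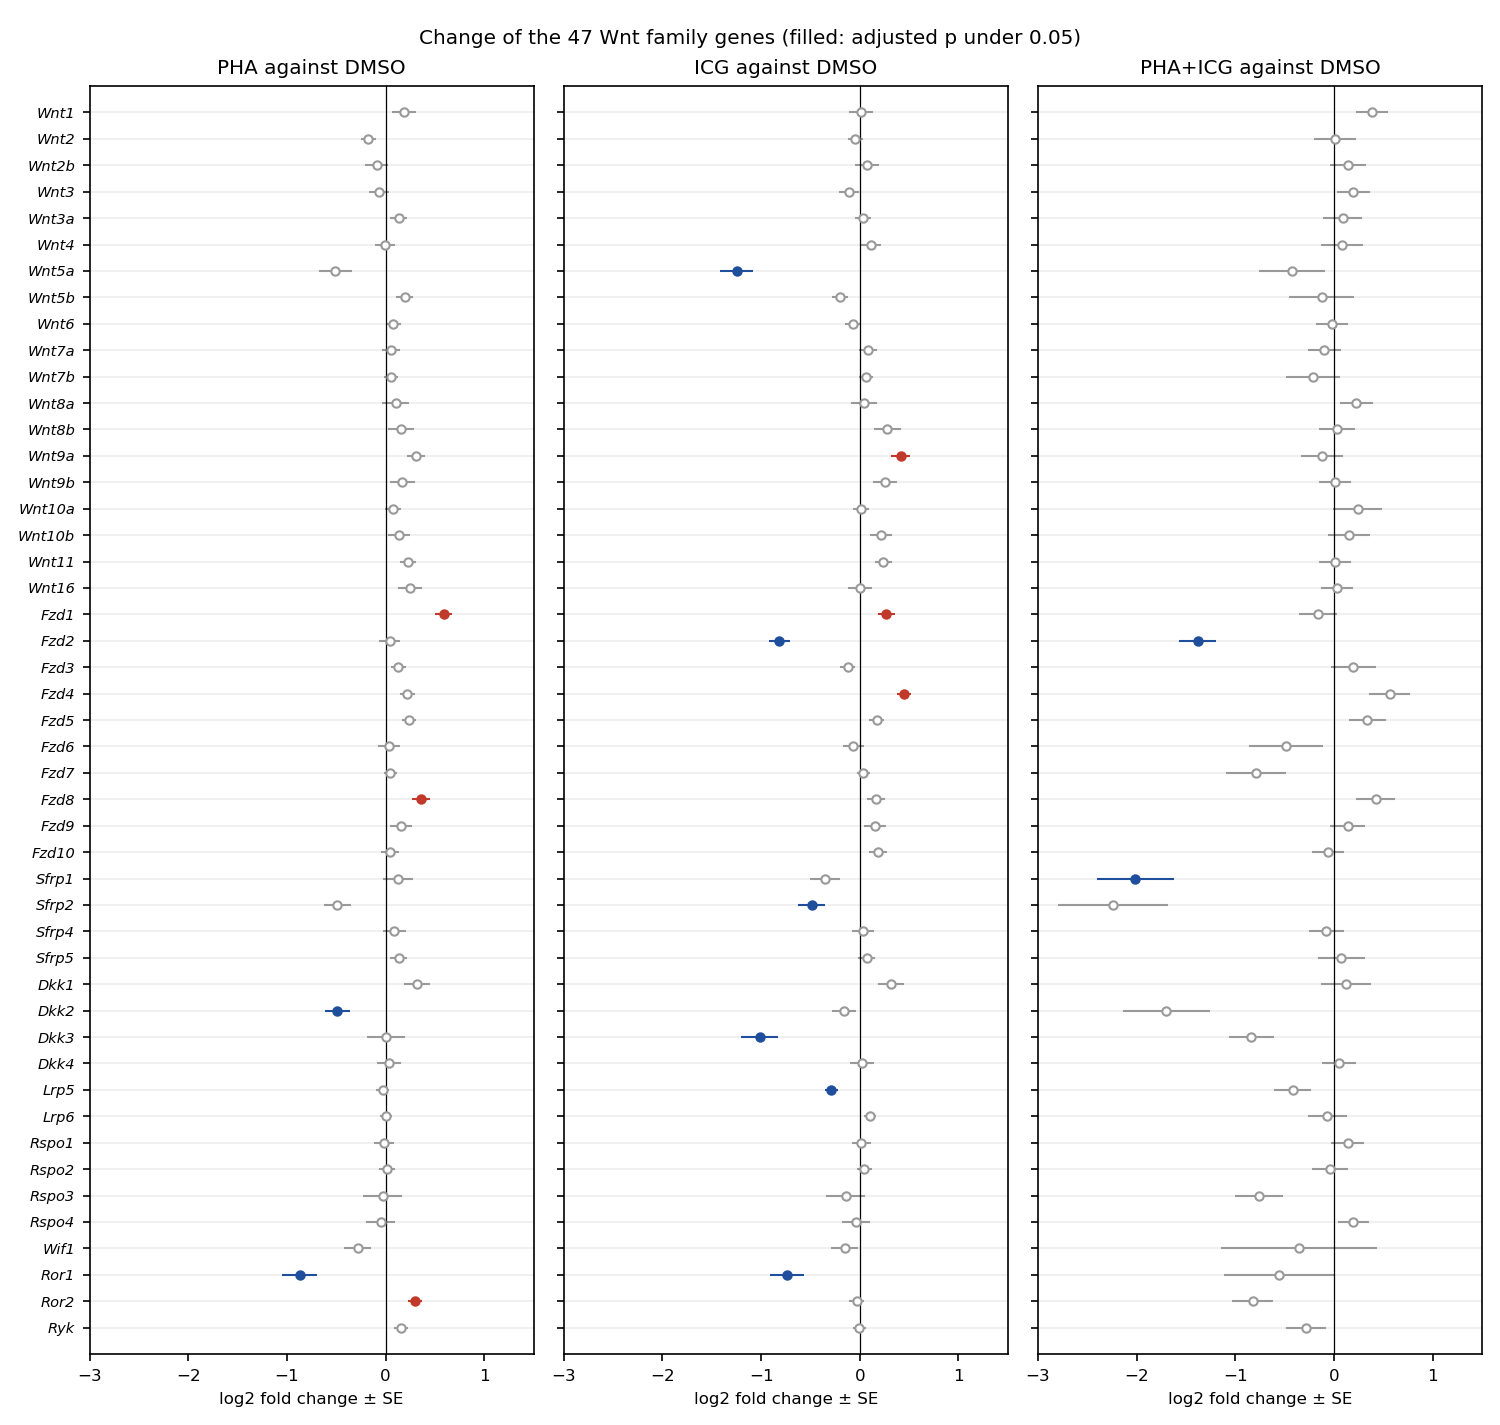
Each point is the log2 fold change (x axis) of 1 of the 47 Wnt family genes (y axis) with PHA, ICG or PHA+ICG against DMSO of the same set, and the bar is its SE. Filled points passed the adjusted threshold: 5 for PHA, 9 for ICG and 2 for the combination, while most ligands lie near 0 in every panel.

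Among the ligands, Wnt5a was the one that fell. Wnt5a signals mainly through Ror and Frizzled receptors without β-catenin. Its probe set read 9.61, 9.71 and 9.76 on the DMSO arrays of the first set, 9.20, 8.96 and 9.38 with PHA, and 8.69, 8.62 and 8.02 with ICG. The 3 groups do not overlap, with DMSO highest and ICG lowest. With ICG it fell by 1.25 ± 0.17 on the log2 scale, which is 2.37 times (adjusted p = 0.00045). With PHA the difference was −0.51 ± 0.17 and missed the threshold (adjusted p = 0.085), and PHA stood 0.74 ± 0.17 above ICG (adjusted p = 0.00794). The 3 other Wnt5a probe sets were lower with ICG as well, by −0.13 to −1.72, and 2 of them without overlap. With PHA they differed by −0.84 without overlap and by −0.48 and 0.03 with overlap. Averaged over its probe sets, Wnt5a was called lower with PHA in the limma fit (adjusted p = 0.0426). In the second set Wnt5a read 8.59, 9.54 and 9.41 with DMSO and 8.24, 8.71 and 9.32 with PHA+ICG. These groups overlap, although the treated array was the lower in all 3 same-numbered pairs (difference −0.43 ± 0.33, adjusted p = 0.727). The 3 other probe sets differed with PHA+ICG by −1.04 without overlap and by −0.71 and 0.05 with overlap.

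In bulk RNA of this kind, fewer cells of a type and less RNA per cell cannot be told apart, and markers of other cell types moved in the same comparisons. The shares of all genes called higher and lower were 3.14% and 7.07% with PHA and 11.9% and 15% with ICG. With PHA+ICG they were 0.478% and 1.54%. Of 16 fibroblast markers ICG lowered 12 and raised none, and their mean level per array ran from 10.72 to 11.27 with DMSO, 10.30 to 10.36 with PHA and 9.56 to 10.14 with ICG. PHA lowered 8 of them and raised none. Of 19 leukocyte markers ICG lowered 11 and raised 1, PHA lowered 5 and raised none, and their level was 9.59 to 9.82 with DMSO, 9.40 to 9.48 with PHA and 8.92 to 9.11 with ICG. With PHA+ICG 3 fibroblast markers fell and none rose, at 12.34 to 12.53 with DMSO and 11.69 to 11.93 after treatment, and no leukocyte marker was called without pairs, at 7.40 to 9.12 and 6.73 to 8.21. Of 15 basal markers PHA lowered 7 and raised none, with levels of 6.51 to 6.58 with DMSO and 6.04 to 6.18 with PHA, and ICG lowered 5 and raised 1, at 6.29 to 6.36. Luminal markers were split, with 2 higher and 4 lower of 15 with PHA and 3 and 3 with ICG, and array levels between 7.20 and 7.33 in all 3 groups of the first set. With PHA+ICG no basal or luminal marker was called without pairs. Of 12 endothelial markers 1 was higher and 2 lower with PHA, 2 higher with ICG and none called with PHA+ICG, and of 8 adipocyte markers none, 1 higher and 1 lower, and 1 lower. The part of these shifts in the changes of the Wnt family genes was not tested.

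The rise among the ligands was that of Wnt9a, a ligand that can act through β-catenin. It read 6.61, 6.41 and 6.41 with DMSO, 6.97, 6.75 and 6.63 with PHA and 6.82, 6.90 and 6.96 with ICG. Both treated groups lie above DMSO without overlap. The increase with ICG was 0.42 ± 0.09 (adjusted p = 0.00903), and with PHA it was 0.31 ± 0.09 and short of the threshold (adjusted p = 0.0697). The other Wnt9a probe set differed by −0.07 with ICG, and the call was lost when probe sets were averaged. Treated with PHA+ICG, arrays at 6.02, 6.54 and 6.13 overlapped DMSO at 6.04, 6.40 and 6.63.

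Wnt5b, a close relative of Wnt5a, was not called against DMSO. Its arrays read 5.11, 5.11 and 4.88 with DMSO, 5.22, 5.31 and 5.15 with PHA and 4.73, 4.85 and 4.91 with ICG. PHA lies above DMSO without overlap, but neither treatment passed the test (0.19 ± 0.08, adjusted p = 0.18, and −0.20 ± 0.08, adjusted p = 0.106). Set directly against each other the inhibitors differed, with PHA 0.39 ± 0.08 above ICG (adjusted p = 0.00573). Its promoter is shown because Wnt5b differed between the inhibitors and because it was the family's only gene with matches to both motifs searched. These were CTTTGAA or CTTTGAT, a core of TCF and LEF sites, and TGANTCA, the AP-1 site, each on both strands in the 250 bases before a transcription start (RefSeq, build GRCm38.p6). A TCF/LEF match stood in 7.48% of all 32851 promoters and in 3 of the 34 promoters of the 31 family genes that had an entry (Dkk1, Wnt11 and Wnt5b), and an AP-1 match in 6.75% of all and in 2 of the 34 (Ror2 and Wnt5b). Below are 2 of the 3 Wnt5b starts, those with a match, at chr6:119544348-119544597 and chr6:119449387-119449636, both on the minus strand, with the match in capitals. Counted from the start, the AP-1 match begins at −191 in the first and the TCF/LEF match at −71 in the second. A match is a stretch of letters and no evidence of binding.
Wnt5b, upstream start: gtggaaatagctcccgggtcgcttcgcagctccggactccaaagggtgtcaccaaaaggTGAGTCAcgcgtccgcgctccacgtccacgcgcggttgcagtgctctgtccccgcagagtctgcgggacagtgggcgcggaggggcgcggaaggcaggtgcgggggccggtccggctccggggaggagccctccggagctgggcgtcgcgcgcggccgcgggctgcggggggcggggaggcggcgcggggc
Wnt5b, downstream start: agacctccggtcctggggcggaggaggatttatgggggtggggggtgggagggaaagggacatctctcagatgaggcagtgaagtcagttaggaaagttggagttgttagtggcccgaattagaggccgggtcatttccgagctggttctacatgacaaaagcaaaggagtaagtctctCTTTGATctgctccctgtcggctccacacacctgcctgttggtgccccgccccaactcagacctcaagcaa

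Wnt4, which acts downstream of progesterone in the gland, was not called with any treatment. It stood at −0.00 ± 0.10 for PHA, 0.11 ± 0.10 for ICG and 0.08 ± 0.21 for the combination, with 95% intervals of −0.24 to 0.23, −0.12 to 0.35 and −0.41 to 0.57. Wnt10a stood at 0.08 ± 0.08, 0.01 ± 0.08 and 0.24 ± 0.24. The 14 other ligands ran from −0.18 to 0.24 for PHA, −0.11 to 0.28 for ICG and −0.21 to 0.38 for the combination, and none of them was called in any of the 3. Over all 19 ligands 5 reached an unadjusted p under 0.05 for PHA, 4 for ICG and 1 for the combination. Most of these probe sets sit below the median of all probe sets, where a change in a rare transcript would be hard to see.

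The Frizzled receptors moved in both directions: with ICG, Fzd1 and Fzd4 rose and Fzd2 fell, and with PHA, Fzd1 and Fzd8 rose. Fzd1 couples to β-catenin signalling. It read 10.30, 10.48 and 10.29 with DMSO, 10.88, 10.88 and 11.07 with PHA and 10.72, 10.56 and 10.59 with ICG. All 6 treated arrays lie above all 3 DMSO arrays, with PHA above ICG. The increase was 0.59 ± 0.08 with PHA (adjusted p = 0.00195), and 0.27 ± 0.08 with ICG (adjusted p = 0.0352), and PHA exceeded ICG by 0.32 ± 0.08 (adjusted p = 0.0161; lost without PHA array 3 or ICG array 2 or 3). The PHA call held when any of the 6 arrays was left out. The ICG call was lost without DMSO array 1 or 3 or any ICG array. The second Fzd1 probe set differed by 0.50 with PHA and 0.28 with ICG, both with overlap. In the second set Fzd1 read 11.18, 11.14 and 11.27 with DMSO and 11.41, 10.84 and 10.84 with PHA+ICG, where the treated arrays lie on both sides of the controls (−0.16 ± 0.19, adjusted p = 0.867).

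Fzd4, the receptor of Norrin and of several Wnt proteins, followed ICG more than PHA. It read 6.05, 6.26 and 6.09 with DMSO, 6.38, 6.30 and 6.36 with PHA and 6.68, 6.51 and 6.55 with ICG. The groups form 3 separate steps, DMSO lowest and ICG highest. ICG passed the test against DMSO, at 0.45 ± 0.07 (adjusted p = 0.00156), with PHA at 0.22 ± 0.07 (adjusted p = 0.0947). PHA minus ICG was −0.23 ± 0.07 (adjusted p = 0.0447), a call that was lost without any of those 6 arrays. With PHA+ICG the arrays read 6.45, 6.34 and 6.52 against 6.29, 5.62 and 5.70. They do not overlap, but the controls are spread and the difference of 0.56 ± 0.21 was not called (adjusted p = 0.257). The 2 other Fzd4 probe sets were higher with ICG by 0.37 and 0.10, both with overlap. The promoters of Fzd1 (chr5:4758217-4758466, minus strand) and Fzd4 (chr7:89404116-89404365, plus strand) are shown because these were the Frizzled genes with an entry that rose; neither window holds a TCF/LEF or AP-1 match, so no letters are in capitals. G and C make up 51.2% of the Fzd1 window and 72.8% of the Fzd4 window.
Fzd1: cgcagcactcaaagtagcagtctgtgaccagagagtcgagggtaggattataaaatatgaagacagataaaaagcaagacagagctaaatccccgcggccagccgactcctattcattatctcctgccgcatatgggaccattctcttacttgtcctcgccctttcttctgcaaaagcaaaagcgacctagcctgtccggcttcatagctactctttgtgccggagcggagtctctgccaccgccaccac
Fzd4: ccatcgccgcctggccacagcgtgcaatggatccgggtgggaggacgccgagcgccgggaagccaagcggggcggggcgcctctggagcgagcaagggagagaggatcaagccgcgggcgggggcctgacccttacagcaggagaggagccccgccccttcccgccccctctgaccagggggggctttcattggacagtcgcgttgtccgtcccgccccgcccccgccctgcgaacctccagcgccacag

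Fzd2, a receptor for Wnt5a among other ligands, fell with ICG and with PHA+ICG but not with PHA. In the first set it read 7.43, 7.72 and 7.41 with DMSO, 7.45, 7.48 and 7.75 with PHA and 6.76, 6.62 and 6.73 with ICG. PHA and DMSO share the same range, and every ICG array lies below them. With ICG it fell by 0.82 ± 0.11 on the log2 scale, 1.76 times (adjusted p = 0.000365), and PHA left it at 0.04 ± 0.11 (95% interval −0.19 to 0.28), with the inhibitors 0.86 ± 0.11 apart (adjusted p = 0.000251). In the second set it read 8.07, 8.25 and 8.33 with DMSO and 6.54, 7.10 and 6.85 with PHA+ICG. Every treated array lies below every control, and it fell by 1.38 ± 0.19 on the log2 scale, 2.61 times (adjusted p = 0.0129; with same-numbered arrays as pairs 0.000729). This call was lost without DMSO array 2, DMSO array 3 or PHA+ICG array 3, each of which leaves 5 arrays. The other 2 Fzd2 probe sets fell below DMSO without overlap as well, by −0.81 and −1.09 with ICG and by −1.16 and −1.24 with PHA+ICG. The effect of PHA+ICG differed from that of PHA by −1.42 ± 0.26 (adjusted p = 0.00725) and from that of ICG by −0.57 ± 0.26, where the test was not passed (adjusted p = 0.669).

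Fzd8 rose with PHA by 0.36 ± 0.09 (adjusted p = 0.034), from 6.36, 6.18 and 6.38 with DMSO to 6.67, 6.54 and 6.78. The groups do not overlap, but the call was lost without DMSO array 2 or 3 or PHA array 1 or 3, and the other Fzd8 probe set differed by 0.08. Fzd7, which is abundant in mammary progenitor cells, read 8.62 to 8.79 with DMSO, 8.65 to 8.82 with PHA and 8.74 to 8.75 with ICG. These ranges overlap, and the differences were 0.05 ± 0.07 and 0.04 ± 0.07. With PHA+ICG it read 8.40, 7.39 and 8.44 against 9.00, 8.52 and 9.06. The treated arrays lie below the controls, but array 2 is low in both groups and the difference of −0.79 ± 0.30 was not called (adjusted p = 0.289), though it was with pairs (adjusted p = 0.0196) and in the fit of all 15 arrays. The other Fzd7 probe set, which is dimmer, differed by 0.03 with PHA+ICG, with overlap. Of the 5 other Frizzled genes, Fzd3, Fzd5, Fzd6, Fzd9 and Fzd10, none was called against DMSO. They ran from 0.03 to 0.24 for PHA, −0.12 to 0.19 for ICG and −0.49 to 0.34 for the combination. Fzd3 differed between the inhibitors, 0.25 ± 0.07 higher with PHA (adjusted p = 0.0287). That call was lost without PHA array 2 or 3 or ICG array 2, with averaged probe sets, with the replicate block and in the fit of all 15 arrays.

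**Figure D2:**
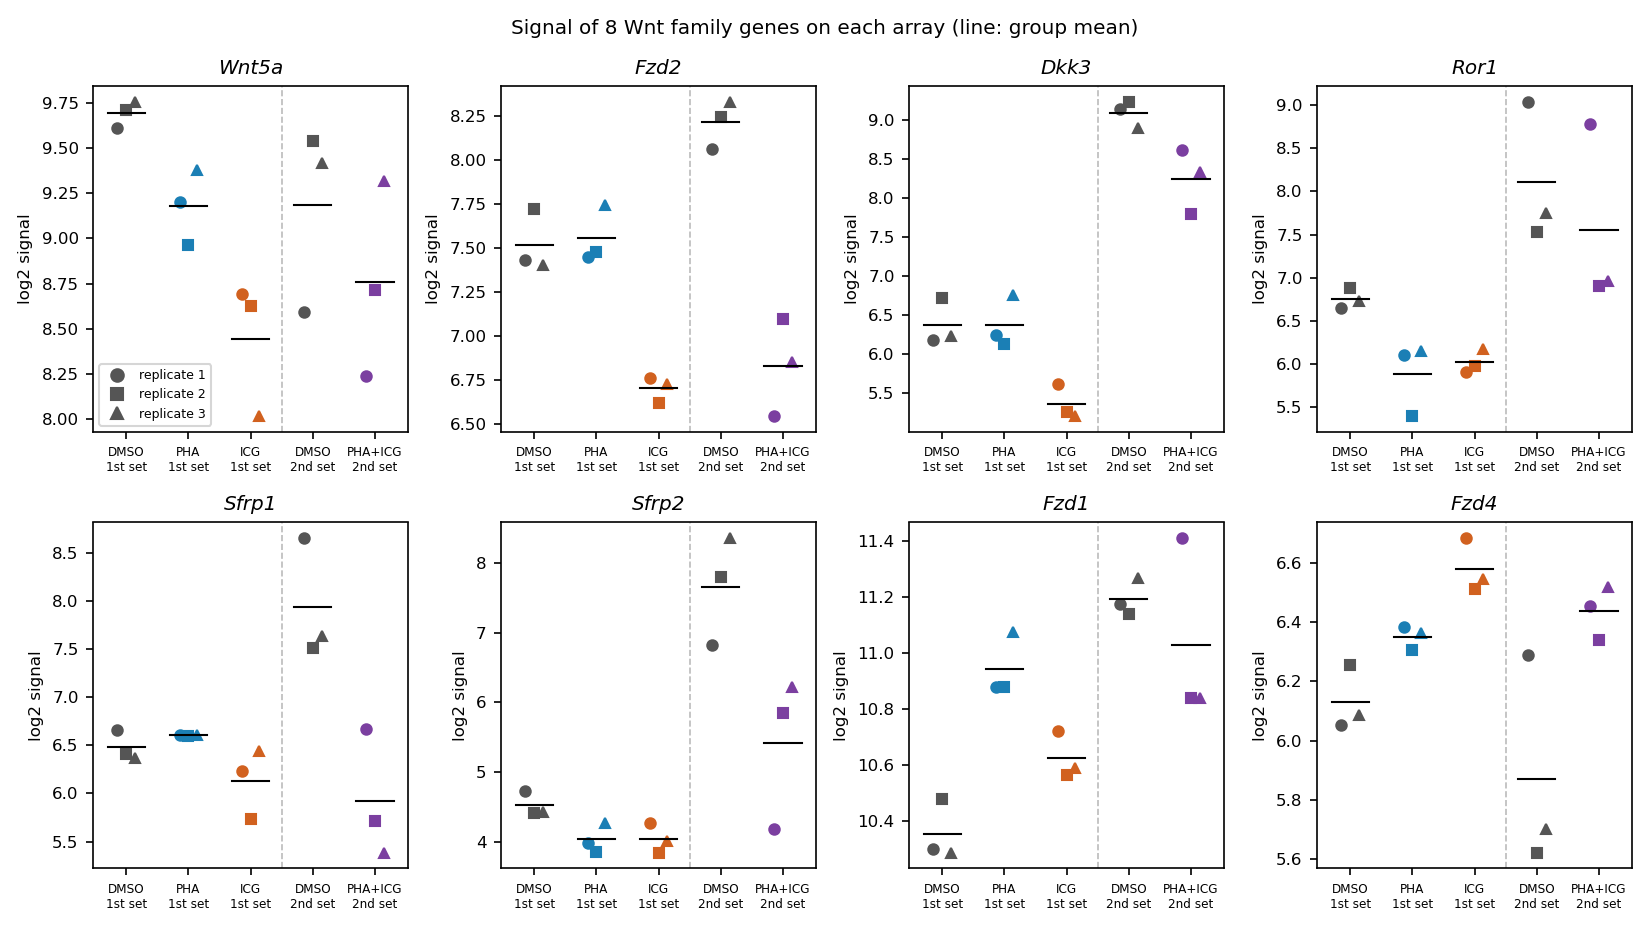
Points are the log2 signal (y axis) of 8 Wnt family genes on each array, grouped by treatment and set (x axis), with the group mean as a line and the replicate number as the marker shape. Wnt5a, Fzd2 and Dkk3 are lowest with ICG in the first set, Fzd1 and Fzd4 rise above DMSO there, and Sfrp1 and Sfrp2 fall with PHA+ICG in the second set.

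The LRP coreceptors differed from each other. Lrp5 read 5.25, 5.16 and 5.09 with DMSO, 5.18, 5.09 and 5.16 with PHA and 4.88, 4.81 and 4.94 with ICG. The ICG arrays lie below all others of the set, and the fall was 0.29 ± 0.07 on the log2 scale (adjusted p = 0.00898), with PHA 0.26 ± 0.07 above ICG (adjusted p = 0.0135; lost without PHA array 1 or ICG array 2). The Lrp5 probe set lies below the median of all probe sets, so the change is in a weak signal. With PHA+ICG it read 4.87, 4.33 and 4.73 against 4.93, 5.13 and 5.13, without overlap and without a call (−0.42 ± 0.18, adjusted p = 0.379). Lrp6 stayed between 9.20 and 9.40 on all 9 arrays of the first set. Its differences were 0.01 ± 0.06 for PHA, 0.10 ± 0.06 for ICG and −0.07 ± 0.20 for the combination.

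Ror1 fell with both single inhibitors. Ror1 and Ror2 are receptor tyrosine kinase-like proteins that bind Wnt5a. Ror1 read 6.65, 6.88 and 6.73 with DMSO, 6.10, 5.39 and 6.15 with PHA and 5.90, 5.98 and 6.17 with ICG. All 6 treated arrays lie below the controls, and the treated groups overlap each other. It fell by 0.87 ± 0.18 on the log2 scale with PHA (adjusted p = 0.0127) and by 0.74 ± 0.18 with ICG (adjusted p = 0.0116). These are 1.83 and 1.67 times. The 2 other Ror1 probe sets, which are dimmer, did not follow, at 0.06 and 0.14 with PHA and 0.09 and 0.21 with ICG. The value of 0.21 lay above DMSO without overlap, and both calls were lost when probe sets were averaged. Ror1 in the second set read 9.04, 7.52 and 7.76 with DMSO and 8.78, 6.90 and 6.96 with PHA+ICG. Array 1 is far above the others in both groups, each treated array is below its same-numbered control, and the difference was not called (−0.56 ± 0.56, adjusted p = 0.822; with pairs 0.0762).

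The brightest Ror2 probe set went the other way with PHA. It read 6.86, 7.03 and 7.01 with DMSO, 7.24, 7.22 and 7.32 with PHA and 7.03, 6.86 and 6.91 with ICG. PHA lies above both other groups, which overlap. It rose by 0.30 ± 0.07 (adjusted p = 0.0294), a call lost without any of the 6 arrays and with averaged probe sets, while ICG left it at −0.03 ± 0.07. PHA exceeded ICG by 0.33 ± 0.07 (adjusted p = 0.00687), a call lost with averaged probe sets and in the fit of all 15 arrays. The other Ror2 probe set lay below DMSO without overlap with PHA (−0.24) and with ICG (−0.35). With PHA+ICG the brightest probe set read 7.19, 6.97 and 7.32 against 7.63, 8.29 and 8.03, lower without overlap by −0.82 ± 0.21 (adjusted p = 0.101; with pairs 0.0272). The effect of PHA+ICG differed from that of PHA by −1.12 ± 0.21 (adjusted p = 0.00941). This difference was lost without DMSO array 2 or 3 of the second set and when probe sets were averaged. Ryk, the third receptor outside the Frizzled family, differed by 0.16 ± 0.07 for PHA, 0.00 ± 0.07 for ICG and −0.28 ± 0.20 for the combination and was not called. The promoters of Ror1 (chr4:100095541-100095790, plus strand) and Ror2 (chr13:53286125-53286374, minus strand) are shown because the brightest probe sets of these relatives moved in opposite directions with PHA. Their other probe sets did not show this pattern. The AP-1 match of Ror2, in capitals, begins at −90 from the start, and the Ror1 window holds no match to either motif.
Ror1: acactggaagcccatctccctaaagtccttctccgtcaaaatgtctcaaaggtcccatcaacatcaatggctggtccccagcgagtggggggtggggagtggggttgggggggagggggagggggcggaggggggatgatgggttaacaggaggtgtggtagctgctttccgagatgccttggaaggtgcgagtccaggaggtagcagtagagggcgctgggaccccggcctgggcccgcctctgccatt
Ror2: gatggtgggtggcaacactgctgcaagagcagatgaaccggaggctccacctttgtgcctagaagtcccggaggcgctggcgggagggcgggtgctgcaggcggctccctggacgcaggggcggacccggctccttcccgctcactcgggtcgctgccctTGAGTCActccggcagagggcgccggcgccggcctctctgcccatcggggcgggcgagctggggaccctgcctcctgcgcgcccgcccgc

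**Figure D3:**
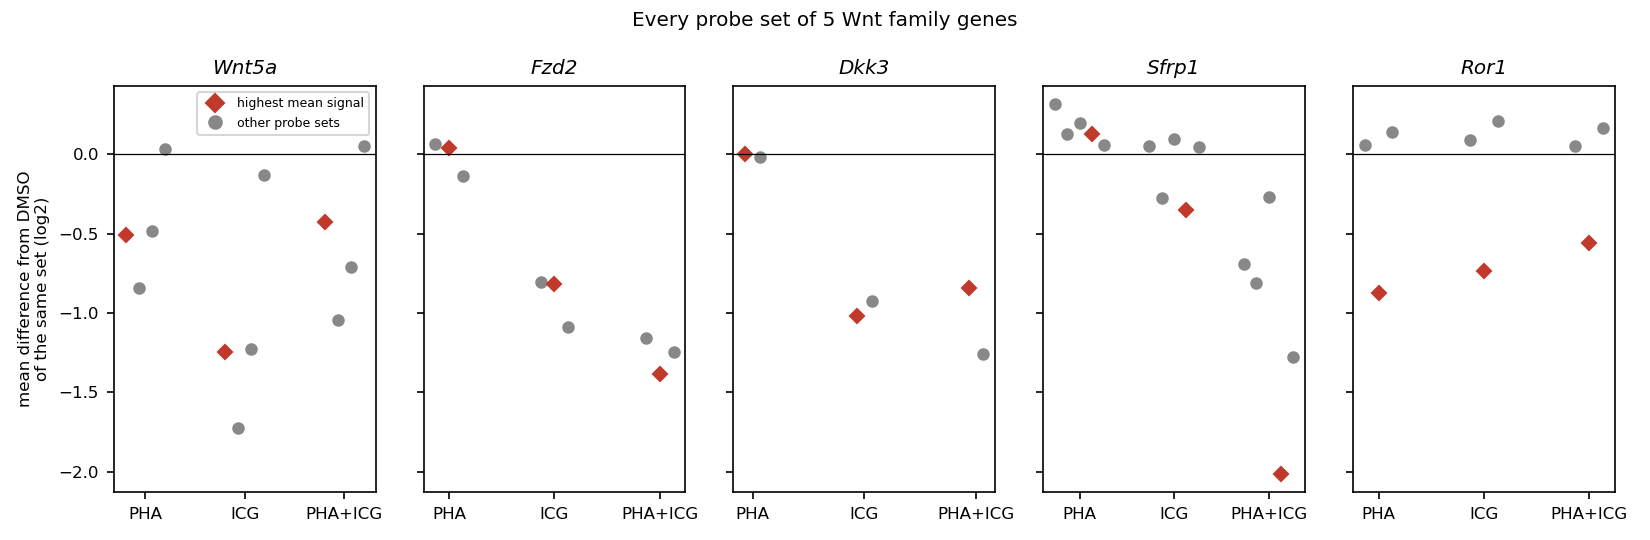
Points are the mean difference from DMSO of the same set (y axis, log2) for every probe set of 5 Wnt family genes with PHA, ICG and PHA+ICG (x axis), and the red diamond is the probe set that stands for the gene. The probe sets of Fzd2 and Dkk3 lie close together, those of Wnt5a and Sfrp1 spread, and the 2 other Ror1 probe sets lie above 0 where the brightest lies below.

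The 3 lowest differences with PHA+ICG were those of the secreted antagonists Sfrp2, Sfrp1 and Dkk2, of which Sfrp1 was called. Sfrp1 binds Wnt ligands and Frizzled receptors. It read 8.66, 7.51 and 7.64 with DMSO and 6.67, 5.72 and 5.38 with PHA+ICG. The groups do not overlap, and array 1 is the highest of its group in both. It fell by 2.01 ± 0.39 on the log2 scale, 4.04 times (adjusted p = 0.0465; with pairs 0.000105), and the same-numbered pairs differed by −1.99, −1.80 and −2.26. Without pairs this call was lost when any array but PHA+ICG array 1 was left out. All 4 other Sfrp1 probe sets were lower, by −0.27 to −1.28, and 3 of them without overlap. In the first set Sfrp1 read 6.66, 6.41 and 6.37 with DMSO, 6.61, 6.60 and 6.61 with PHA and 6.23, 5.73 and 6.44 with ICG. Neither inhibitor alone passed the test (0.12 ± 0.15 and −0.35 ± 0.15, adjusted p = 0.661 and 0.124), and PHA lay 0.47 ± 0.15 above ICG (adjusted p = 0.0435), a call lost without any PHA array or without ICG array 1 or 2. The effect of PHA+ICG differed from that of PHA by −2.14 ± 0.44 (adjusted p = 0.0164). It differed from that of ICG by −1.66 ± 0.44, which was not called (adjusted p = 0.171). The difference from ICG passed with averaged probe sets, without PHA+ICG array 1, or with replicate numbers of both sets as a block (adjusted p = 0.0148). The difference from PHA was lost without DMSO array 1, DMSO array 3 or PHA+ICG array 3 of the second set.

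Sfrp2, a relative of Sfrp1 that many fibroblasts secrete, had the lowest value with PHA+ICG. Its single probe set read 6.82, 7.80 and 8.36 with DMSO and 4.18, 5.85 and 6.22 with PHA+ICG. The groups do not overlap, but each is spread over more than 1 unit, with array 1 the lowest in both. The difference was −2.24 ± 0.56 and not called (adjusted p = 0.0961), whereas with pairs it was (adjusted p = 9.67e-05), since the pairs differ by −2.64, −1.95 and −2.14. In the first set it read 4.73, 4.42 and 4.43 with DMSO, 3.98, 3.86 and 4.27 with PHA and 4.26, 3.84 and 4.01 with ICG. Both treated groups lie below DMSO and overlap each other. The fall with ICG was 0.48 ± 0.14 on the log2 scale (adjusted p = 0.0252), lost without DMSO array 1 or ICG array 2 or 3, and PHA stood at −0.49 ± 0.14 (adjusted p = 0.0507). These signals lie below the median of all probe sets. The Sfrp2 promoter (chr3:83766071-83766320, plus strand) is shown as that of the only called SFRP gene with an entry; it holds no TCF/LEF or AP-1 match and no capitals.
Sfrp2: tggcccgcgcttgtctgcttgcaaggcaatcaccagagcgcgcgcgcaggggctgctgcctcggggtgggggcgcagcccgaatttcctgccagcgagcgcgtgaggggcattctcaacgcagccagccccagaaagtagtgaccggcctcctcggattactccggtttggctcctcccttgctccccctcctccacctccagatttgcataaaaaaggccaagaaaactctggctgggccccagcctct

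Sfrp4 and Sfrp5 were not called with any treatment, at 0.09 and 0.13 for PHA, 0.03 and 0.07 for ICG and −0.08 and 0.07 for the combination. Wif1, a secreted inhibitor that binds Wnt ligands, read 3.22 to 3.92 on the 9 arrays of the first set, near the floor of the scale. In the second set array 1 stood apart, at 6.46 with DMSO and 5.23 with PHA+ICG, beside 3.57 and 3.50 and 3.54 and 3.68 on the other arrays. Its difference with PHA+ICG, −0.36 ± 0.79, therefore rests on array 1.

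Dkk3, a Dickkopf relative that does not bind LRP coreceptors and is made by stromal and basal cells, fell with ICG. It read 6.17, 6.71 and 6.23 with DMSO, 6.24, 6.12 and 6.76 with PHA and 5.61, 5.25 and 5.20 with ICG. PHA and DMSO overlap and ICG lies below both. The fall was 1.02 ± 0.19 on the log2 scale, 2.02 times (adjusted p = 0.00314), PHA left it at 0.00 ± 0.19, and the inhibitors differed by 1.02 ± 0.19 (adjusted p = 0.00279). The second Dkk3 probe set was lower by −0.93 with ICG without overlap. With PHA+ICG it read 8.61, 7.79 and 8.33 against 9.14, 9.23 and 8.89, lower without overlap by −0.84 ± 0.23 (adjusted p = 0.126; with pairs 0.0311). The effects of PHA+ICG and ICG on Dkk3 differed by 0.18 ± 0.44.

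Dkk2, which binds Lrp5 and Lrp6, fell with PHA by 0.49 ± 0.12 on the log2 scale (adjusted p = 0.0335). It read 3.83, 4.38 and 3.99 with DMSO, 3.62, 3.63 and 3.48 with PHA and 3.83, 3.92 and 3.98 with ICG. PHA lies below both other groups, but all these signals are far below the median of all probe sets, and the call was lost without any array but DMSO array 1. Dkk2 in the second set read 4.51, 6.38 and 6.14 with DMSO and 3.84, 3.88 and 4.22 with PHA+ICG. The treated arrays lie below the controls, of which array 1 is the lowest, and the difference of −1.70 ± 0.44 was not called (adjusted p = 0.11), though it was with pairs (adjusted p = 0.00494), in the fit of all 15 arrays and without DMSO array 1. Dkk1 and Dkk4 were not called, at 0.32 and 0.03 for PHA, 0.32 and 0.02 for ICG and 0.12 and 0.05 for the combination.

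The R-spondins showed no called change in the unpaired fits of each set. Rspo1 differed by −0.02 ± 0.10 for PHA, 0.02 ± 0.10 for ICG and 0.14 ± 0.17 for the combination, on signals between 3.91 and 4.44. Rspo3, whose insertional activation is known from mouse mammary tumours, read 9.22, 9.89 and 9.89 with DMSO and 8.73, 8.73 and 9.25 with PHA+ICG. The groups overlap narrowly, all 3 pairs were lower, and the difference of −0.76 ± 0.24 was not called (adjusted p = 0.191), though it was with pairs (adjusted p = 0.0272) and in the fit of all 15 arrays. In the first set it differed by −0.03 ± 0.20 and −0.14 ± 0.20. The other Rspo3 probe set, which is dimmer, did not fall with PHA+ICG and differed by 0.34, with overlap. Rspo2 and Rspo4 ran from −0.05 to 0.19 over the 3 treatments.

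With same-numbered arrays of the second set as pairs, PHA+ICG lowered 8 of the 47 genes and raised none, against 7.93% of all genes, 6.01% lower and 1.92% higher. These pairs were chosen from the same arrays that the fit used. The 8 were Sfrp1, Sfrp2, Fzd2, Fzd7, Dkk2, Dkk3, Ror2 and Rspo3. The same paired fit lowered 11 of 19 leukocyte, 6 of 16 fibroblast, 5 of 15 luminal, 3 of 15 basal, 1 of 8 adipocyte and 0 of 12 endothelial markers and raised none of them, and their part in the result was not tested. Without a test, 8 of the 47 lay below DMSO and 6 above it without overlap, beside 18.3% of all genes, 11% and 7.33%. With PHA these numbers were 5 and 12, beside 31.6% (16.2% and 15.4%), and with ICG 7 and 5, beside 40.6% (20.4% and 20.2%). The difference between the effects of PHA+ICG and PHA was called lower for 3 genes (Sfrp1, Fzd2 and Ror2) and higher for none, against 2.74% of all genes, 1.66% and 1.08%. That between PHA+ICG and ICG was called for none, against 0.385% of all genes, with 7 of the 47 at an unadjusted p under 0.05. With replicate numbers of both sets as a block, 2 were lower (Sfrp1 and Sfrp2), beside 151 lower and 46 higher of all genes. In these differences between effects, treatment cannot be told apart from set. DMSO of the second set was higher than that of the first without overlap for Sfrp1 (1.45), Ror2 (1.02) and Fzd2 (0.70). The part of these levels in the differences was not tested. PHA and ICG themselves differed for 10 genes, 9 higher with PHA (Dkk3, Fzd2, Wnt5a, Sfrp1, Wnt5b, Ror2, Fzd1, Lrp5 and Fzd3) and 1 lower (Fzd4), against 27.1% of all genes, 13.7% and 13.4%. Without a test, 11 were higher and 2 lower with PHA than ICG, beside 41.7% of all genes (20.8% each way). The fit of all 15 arrays kept Fzd2 and Dkk3 higher and none lower, beside 8.04% of all genes, 4.36% and 3.68%.

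**Figure D4:**
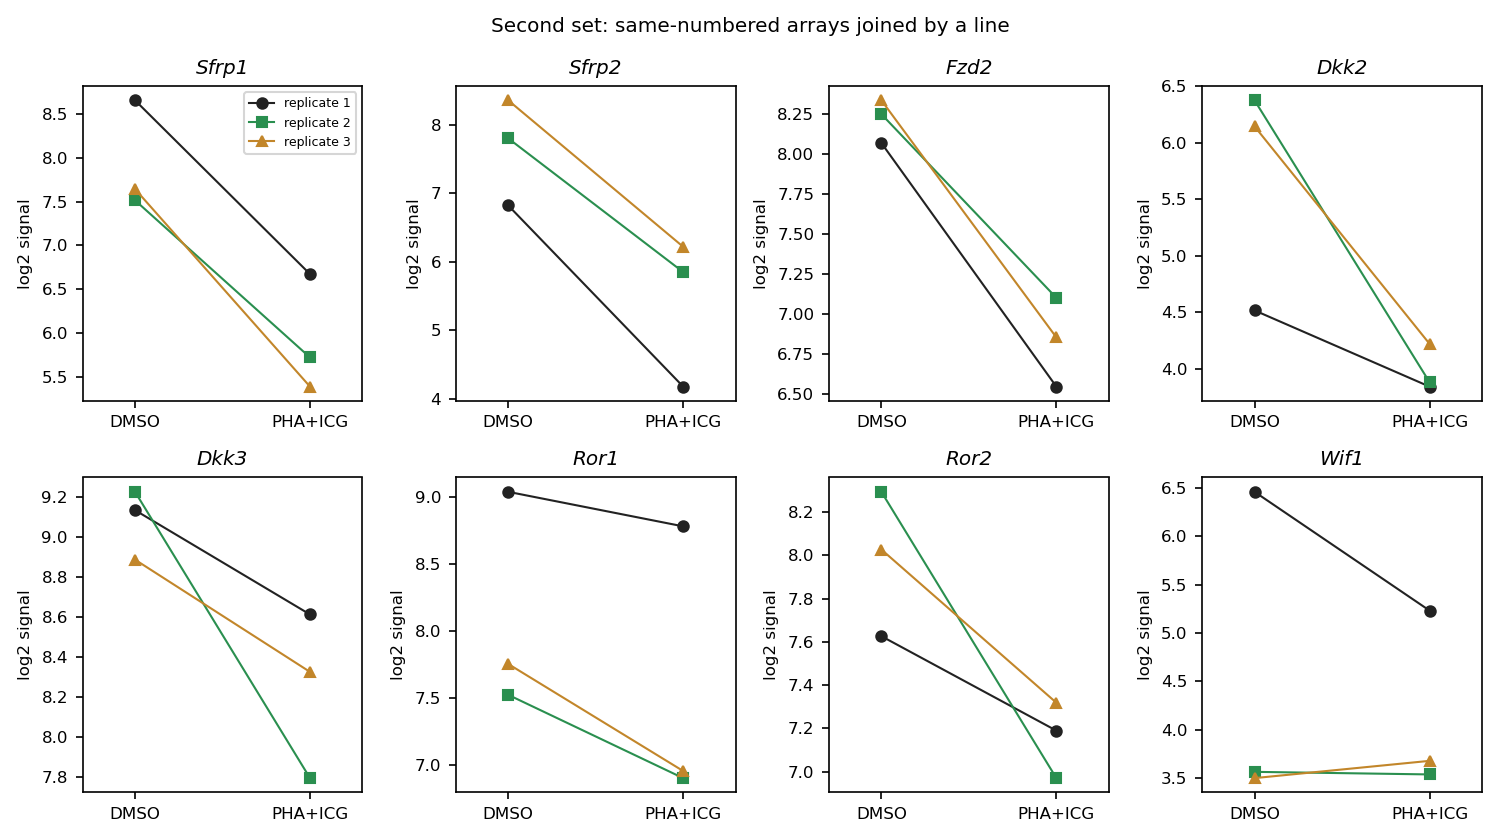
Points are the log2 signal (y axis) of 8 Wnt family genes with DMSO and PHA+ICG (x axis) in the second set, and lines join arrays of the same replicate number. Sfrp1, Sfrp2, Fzd2, Dkk2, Dkk3, Ror1 and Ror2 fall along all 3 lines, and replicate 1 stands apart from the other arrays for Wif1 and Ror1.

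The scaling of the arrays bears on the split between higher and lower calls. Of all calls 30.8% were higher with PHA and 44.2% with ICG, and after centring arrays on their medians these shares became 55.9% and 61.8%. With quantile normalization they were 45.1% and 52.3%, and for PHA+ICG the share went from 23.6% to 35.7%. Among the 47 genes the PHA calls went from 3 higher and 2 lower to 7 and 2 with centring and 5 and 3 with quantile normalization, and the ICG calls from 3 and 6 to 5 and 6 and to 4 and 6. No gene named here changed direction under either scaling where it was called.

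The vehicle spheres of both sets differed for many of these genes. Compared with DMSO of the first set, DMSO of the second set was higher without overlap for 16 of the 47 genes and lower for 6, beside 43.9% of all genes, 23.7% and 20.2%, and 25 overlapped. The 8 that differed by 1 or more were all higher in the second set. Sfrp2 was 3.14 higher and Dkk3 2.71, then Rspo3 by 1.68, Dkk2 by 1.61, Sfrp1 by 1.45, Ror1 by 1.35, Ryk by 1.15 and Ror2 by 1.02. Lower in the second set by the most were Fzd5 (−0.73), Fzd3 (−0.61) and Wnt5a (−0.51). Of these Sfrp1, Sfrp2, Dkk2, Dkk3, Ror2 and Rspo3 are also among the genes lower with PHA+ICG when pairs are used. Fibroblast markers were higher in the same DMSO arrays, at 12.34 to 12.53 against 10.72 to 11.27, and leukocyte markers lower, at 7.40 to 9.12 against 9.59 to 9.82. Luminal markers were higher there too, at 7.81 to 8.19 against 7.21 to 7.33, while the basal, endothelial and adipocyte levels overlapped between the sets. The part of these levels in the difference was not tested. The code of the titles, and whatever else separated the sets, cannot be told apart from the set in this comparison, which is given without a test.

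**Figure D5:**
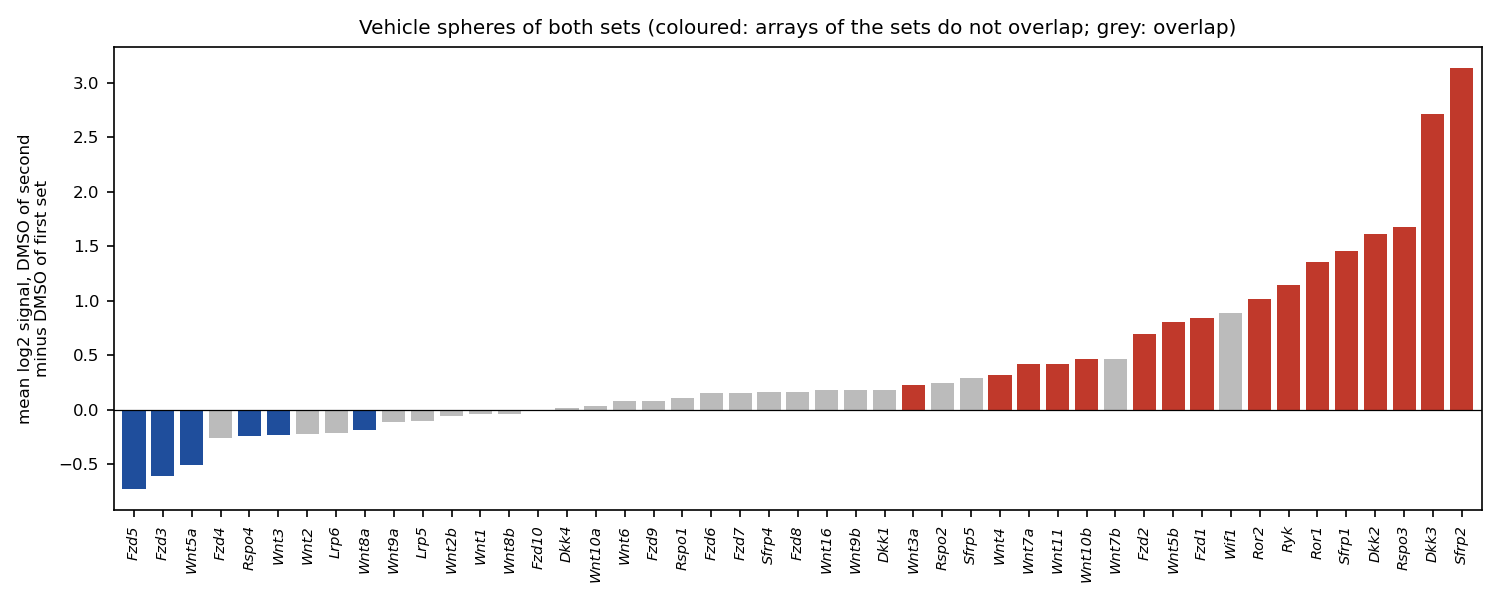
Bars are the mean log2 signal of the 47 Wnt family genes with DMSO in the second set minus that in the first set (y axis), ordered by size (x axis), coloured where the 3 arrays of each set do not overlap. The highest bars are Sfrp2 and Dkk3 at 3.14 and 2.71, and the lowest is Fzd5 at −0.73.

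Further genes of the pathway changed beside these families. Among 23 measured genes of Wnt secretion and its extracellular modifiers, ICG lowered 9 and raised 1 (Gpc4), and PHA lowered 3 and raised 1 (Reck). Over all genes ICG lowered 15% and raised 11.9%, PHA lowered 7.07% and raised 3.14%, and PHA+ICG lowered 1.54% and raised 0.478%. Cthrc1, a secreted protein that favours Wnt5a signalling through Ror2, averaged 8.85 with DMSO, 7.31 with PHA and 5.84 with ICG. It fell by 1.55 ± 0.29 and 3.02 ± 0.29 on the log2 scale (adjusted p = 0.00877 and 7.49e-05). Frzb, a further SFRP family gene, fell with ICG by 1.44 ± 0.28, Bambi, a pseudoreceptor, by 0.99 ± 0.11, and Igfbp4, which binds Frizzled and LRP proteins, by 0.92 ± 0.15. Their means were lower with PHA than with DMSO too, at 5.06 against 5.82, 6.93 against 7.42 and 8.04 against 8.58, in that order. With PHA+ICG the call was that of Ptk7, a coreceptor in planar polarity, which fell by 0.87 ± 0.16 (adjusted p = 0.0385). None of the 5 R-spondin receptors and E3 ligases that remove Frizzled (Lgr4, Lgr5, Lgr6, Rnf43 and Znrf3) was called with any treatment. Of them 0, 1 and 1 reached an unadjusted p under 0.05 for PHA, ICG and the combination.

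Inside the cell, 33 measured signalling genes gave 5 higher and 3 lower calls with ICG, beside 11.9% and 15% of all genes. Gsk3b, the kinase that marks β-catenin for breakdown, rose by 0.56 ± 0.08, Tle3, a corepressor of TCF factors, by 0.41 ± 0.06, and Ep300, a histone acetyltransferase that β-catenin recruits, by 0.38 ± 0.07, while the corepressor Tle2 fell by 0.44 ± 0.09. PHA gave 1 call (Bcl9, a β-catenin partner, which fell by 0.32 ± 0.07), and PHA+ICG 1 (Tle2, which fell by 0.90 ± 0.15). The shares of all genes called were 10.2% and 2.02%. Of 22 measured feedback and target genes, 8 of which also stand in another of these lists or among the 47, ICG raised 2 and lowered 4, PHA lowered 3 and PHA+ICG lowered 1. Shares of all genes were 11.9% higher and 15% lower with ICG, and 7.07% and 1.54% lower with PHA and PHA+ICG. Ccn4, a secreted matrix protein first described as Wnt-induced, fell by 1.21 ± 0.17 with PHA and fell by 1.96 ± 0.17 with ICG, and Nkd2, a feedback inhibitor, by 0.49 ± 0.08, by 0.57 ± 0.08 and, with PHA+ICG, by 0.91 ± 0.18. Myc fell by 0.44 ± 0.10 with PHA and rose by 0.46 ± 0.10 with ICG. Axin2, the most widely used readout of β-catenin transcription, was not called, at −0.03 ± 0.07, −0.17 ± 0.07 and 0.08 ± 0.15.

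The RNA quality measures of the first set were highest on average with ICG, with ranges that overlapped those of DMSO. The 3′ minus 5′ signal of the Actb control probe sets, which grows as RNA degrades, was 0.447 ± 0.124 (SD, n = 3) with DMSO, 0.541 ± 0.0562 with PHA and 0.631 ± 0.0697 with ICG, and 0.590 ± 0.111 and 0.591 ± 0.161 with DMSO and PHA+ICG of the second set. For Gapdh it was 0.402 ± 0.305 with PHA+ICG, from 0.0789 to 0.685, and 0.103 to 0.193 on average in the other groups. In the first set Gapdh averaged 0.116 with DMSO, 0.103 with PHA and 0.193 with ICG. The part of these differences in the changes above was not tested.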

How the data were processed

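RNA of 15 mammosphere samples in 5 groups was hybridised to Affymetrix arrays of 45101 probe sets. The deposited values are log2 signals, 1 per probe set and array; the submitters' processing notes name MAS5 and RMA without a version or role, and whether both sets were normalized together is not given in the sources used here. Array means were 6.25 in the first set and 6.25 to 6.35 in the second. Precision is limited by having 3 arrays a group.

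Probe sets were named from the platform annotation: 34945 had 1 symbol and were used, 932 had several, 9160 had none and 64 were controls, and all of these others were left out. The brightest probe set stood for a gene, which gave 18193 genes, 9010 of them with several probe sets. Each set was fitted alone with limma 3.58.1 in R 4.3.3 (lmFit and eBayes; residual and prior degrees of freedom 6 and 3.98, and 4 and 4.23), with Benjamini-Hochberg adjustment over all 18193 genes. Differences between effects came from all 15 arrays with weights per set (10 and 5.26), and p-values in the text are from these fits unless a block is named. The main fits were also run on simulated data with independent noise for each array. The blocked fits and the fit of all 15 arrays with equal weights were not run there. Tables and figures were made with Python 3.11.15, numpy 2.4.6, pandas 2.3.3 and matplotlib 3.10.9.

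In the second set, arrays sharing a number deviated together (correlations 0.61, 0.36 and 0.28 for numbers 1 to 3) and were taken as pairs, on the data alone, in a second fit with the replicate number as a block. Arrays 2 and 3 also correlated across numbers, at 0.35 for DMSO 3 with PHA+ICG 2 and 0.24 for DMSO 2 with PHA+ICG 3. The correlations thus set array 1 apart but do not settle how arrays 2 and 3 pair. The paired p-values come from the same arrays that chose the pairs. Those of the first set correlated between −0.26 and 0.12 and were not taken as pairs. A block on them entered only as an alternative, and in the blocked fit of effect differences, which covered both sets.

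The members and lists were chosen with earlier results of these data known. Named genes are all members called against DMSO, 13 members named whatever their result, and up to 4 called genes per other list and comparison with the largest change. Outside this rule, Axin2 and the R-spondin receptors and E3 ligases were named without a call. Fzd3, Rspo3, Wif1 and other members given by name beyond this were chosen after their values were seen. Alternatives were other scalings, 1 fit of all arrays, the block, averaged probe sets, genes above the median signal, another variance prior and leaving out each array.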

Additional observations from a re-analysis of the deposited data

How the results depend on the processing

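Of 120 gene results under 1764 alternatives, 1637 kept their side of the threshold, 88 lost the call and 39 gained it. A result called in either fit changed direction in 0 cases, while changes of sign in uncalled results were not counted. Counts of called Wnt family genes moved by more than 1.5 times as follows, each beside the count over all genes tested in that setting. The cause was not tested. With PHA, 3 higher became 5 with quantile normalization, 7 with arrays centred on their median, 0 in 1 fit of all 15 arrays, 1 with averaged probe sets and 5 among genes above the median signal, and 2 lower became 0 in the fit of all arrays and 1 among genes above the median. Over all genes, 572 higher became 897, 1188, 18, 485 and 788 in these settings, and 1286 lower became 164 and 1481. With ICG, 3 higher became 5 with centring and 0 in the fit of all arrays, and 6 lower became 3 there. The counts over all genes went from 2162 higher to 3447 and 384, and from 2734 lower to 871. Between PHA and ICG, 9 higher became 2 in the fit of all arrays and 5 with averaged probe sets, and 1 lower became 0 in the fit of all arrays, with the replicate block, with averaged probe sets and with the trended robust prior. Over all genes, 2497 higher became 793 and 2216, and 2442 lower became 670, 2121, 2141 and 2719. With PHA+ICG, 0 higher and 2 lower became 1 and 9 in the fit of all arrays, and 2 lower became 8 with the replicate block. The counts over all genes went from 87 higher and 281 lower to 811 and 1602, and to 1093 lower with the block. Between the effects of the combination and of PHA, 3 lower became 5 with the replicate block, and between those of the combination and of ICG, 0 lower became 2 with it and 1 with averaged probe sets. Over all genes, 302 lower became 608, and 48 lower became 151 and 69. For these differences the block took in the replicate numbers of both sets. Leaving out 1 array gave 1 to 3 higher and 1 to 2 lower with PHA, 2 to 4 and 5 to 7 with ICG, 5 to 9 and 0 between them, 0 and 0 to 2 with PHA+ICG, and 0 to 4 and 0 to 1 lower for the effect differences from PHA and from ICG. Over all genes it gave 271 to 548 higher and 734 to 1143 lower with PHA. With ICG it gave 1509 to 2180 and 2123 to 2576, and between the inhibitors 1967 to 2179 and 1932 to 2220. With PHA+ICG it gave 12 to 64 and 44 to 325, and for the effect differences 76 to 538 and 0 to 117 lower. In the first set, where the numbers were not taken as pairs, the replicate block ended the call of Ror2 with PHA (adjusted p = 0.0722) and of Fzd1 with ICG (adjusted p = 0.0748). Between the inhibitors it ended the calls of Fzd3 and Fzd4.

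With 3 arrays a group and the wider spread of the second set, changes there must be larger to be called. Signals below the median of all probe sets, as for most ligands, Dkk2, Lrp5 and Sfrp2 in the first set, leave small changes uncertain.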
